A study of Homo sapiens with 27 samples.

Results

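The comparison was between OCI-AML3 cells kept for 8 h with 250 nM POL6326 and the same cells kept for 4 h with that dose, on 3 miRNA arrays each. It asked which microRNAs (miRNAs) came back, and which fell away, after the first 4 h. These 6 arrays were taken by their titles out of 27, and all 774 human miRNA probes were examined. OCI-AML3 is an established cell line from an acute myeloid leukaemia, and POL6326 is an antagonist of the chemokine receptor CXCR4. The other arrays were 3 of untreated cells at 0 h, 3 each of POL6326 at 1 and 2 h, and 3 each of 100 ng/mL SDF-1α, the natural ligand of CXCR4, at 1, 2, 4 and 8 h. The untreated cells are from 0 h alone, so the change between these times mixes antagonist and time in culture. Nothing in the labels ties the replicate arrays to separate cultures, so the p-values measure the spread between arrays, which may be technical.

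CXCR4 is a G-protein-coupled receptor that holds blood-forming and leukaemic cells in the bone marrow, where stromal cells release SDF-1α (CXCL12). A miRNA is cut from a hairpin precursor into a short duplex, and 1 strand is usually kept to pair with messenger RNAs through its seed, bases 2 to 8. The name with an asterisk is the strand usually less abundant. A change of such a strand need not follow its partner, and a probe for a precursor reads another molecule than a probe for the mature form.

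The mature sequences of the miRNAs that carried the comparison are given first, from RefSeq (GRCh38.p14), 5′ to 3′, with the seed in capitals. The first 5 had a lower mean at 4 h than at 2 h and were higher again at 8 h.
miR-125b-2*: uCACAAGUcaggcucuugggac
miR-130b*: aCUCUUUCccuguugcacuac
miR-16: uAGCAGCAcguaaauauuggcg
miR-663: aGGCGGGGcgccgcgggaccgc
miR-181c*: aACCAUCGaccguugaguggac
The next 3 were also higher at 8 h than at 4 h.
miR-602: gACACGGGcgacagcugcggccc
miR-200a*: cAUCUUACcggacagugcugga
miR-19a*: aGUUUUGCauaguugcacuaca
The last pair had signal at 4 h and little at 8 h.
miR-551b*: gAAAUCAAgcgugggugagacc
miR-493: uGAAGGUCuacugugugccagg
The 10 seeds are all different. The miR-125b-2* strand lies at chr21:16590290-16590311 on the plus strand, in MIR125B2, and miR-130b* at chr22:21653316-21653336 on the plus strand, in MIR130B. The mature miR-16 is encoded by MIR16-2 at chr3:160404754-160404775 on the plus strand and by MIR16-1 at chr13:50049027-50049048 on the minus strand, and the probe cannot tell them apart. miR-663 lies at chr20:26208243-26208264 on the minus strand and is 90.9% G and C. miR-602 is 78.3% G and C. miR-493 lies at chr14:100869116-100869137, on the plus strand.

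All values are log2 signals as the authors deposited them, and differences are log2, 8 h minus 4 h. The faint probes of an array are tied at a single low value, called its floor here. On their own floors, the 8 h arrays had 422, 393 and 394 of 774 probes above it, against 482 to 593 on the 4 h arrays (403 ± 16.5 against 525 ± 59.8, SD, n = 3). The 3 arrays of 8 h were all lower, and the exact two-sided permutation p was 0.1, the smallest that 3 against 3 allows. The lowest measured signal was 4.60 to 4.73 at 8 h and 4.27 to 4.45 at 4 h. At 1 common limit of 4.73 the order turned round, with 388, 389 and 394 probes at 8 h and a mean 36 lower at 4 h, where each of the 3 arrays had fewer. The first 4 h array, with the most probes above its floor, had the fewest at the common limit (331). The net excess of probes above the floor at 4 h thus lay in faint signals below that limit, although some probes above the floor only at 4 h were brighter.

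**Figure D1:**
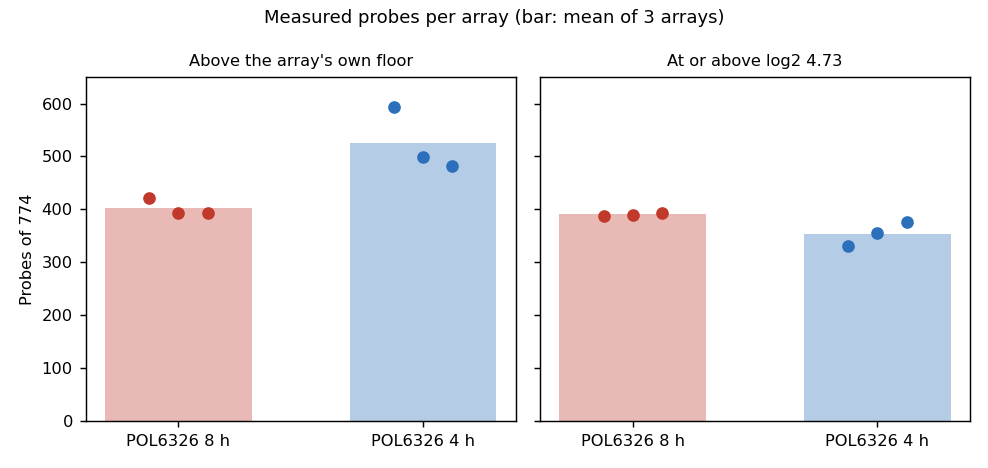
Probes of 774 measured on each array (points) and their mean over 3 arrays (bars) at POL6326 8 h and 4 h, above the array's own floor (left) and at or above log2 4.73 (right). The 8 h arrays are lower on the left and higher on the right.

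On all 6 arrays 321 of the 774 probes exceeded the floor, and on none 18.6%. In 29, all 3 arrays of 4 h and none of 8 h were above the floor. Only 7 of those 29 had a 4 h mean above the highest 8 h limit, and the median 4 h mean was 4.54. No probe showed the opposite pattern. Among the 321 probes the median difference was 0.31, and 228 were higher at 8 h. That median was 0.18 after median centring and 0.17 after quantile normalization, with 201 probes higher at 8 h after median centring. In 257 probes more arrays were above the floor at 4 h, and in 28 at 8 h. Requiring all 6 arrays thus leaves out probes at the floor at 8 h more often than at 4 h, which favours rises among the 321.

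Markers of blood cells were looked at for the labelled cell type. Myeloid miR-223 had 14.65, 14.65 and 15.12 at 8 h and 13.88, 14.01 and 14.19 at 4 h. miR-155, an inflammatory miRNA of blood cells, averaged 11.04 ± 0.12 at 8 h and 10.66 ± 0.17 at 4 h (SD, n = 3). miR-142-5p averaged 8.19 ± 0.45 at 8 h and 8.28 ± 0.09 at 4 h. Its partner miR-142-3p, a defining blood-cell miRNA, was at the floor on all 8 h arrays and averaged 4.29 ± 0.04 at 4 h. Probes for miRNAs of other tissues gave signal too. miR-122 of liver had 8.41, 8.55 and 8.49 at 8 h, against 4.83, 7.83 and 8.41 at 4 h, and its part in the results was not tested.

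At 8 h, 18 of the 774 probes (2.33%) differed from 4 h at an adjusted p of 0.05 in a limma fit over all 27 arrays. Of these, 13 (1.68%) were higher at 8 h and 5 (0.646%) lower. At an unadjusted p under 0.05 there were 131. The split depended on the scaling, with 5 higher and 9 lower after median centring and 6 higher and 5 lower after quantile normalization. The array medians used for centring lay among faint signals, at 4.73 to 4.77 at 8 h and 4.53 to 4.68 at 4 h. On most arrays of the other groups the median was the floor itself. The 9 called probes above the floor on all 6 arrays were all higher at 8 h. None of the 5 lower ones could be in that set, since each was at the floor on some 8 h arrays. The other 9 rested at least partly on arrays at or under the floor. Among the 321 probes measured on all 6 arrays, the 3 values of 8 h lay wholly above those of 4 h in 107 (33.3%) and wholly below in 29 (9.03%).

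**Figure D2:**
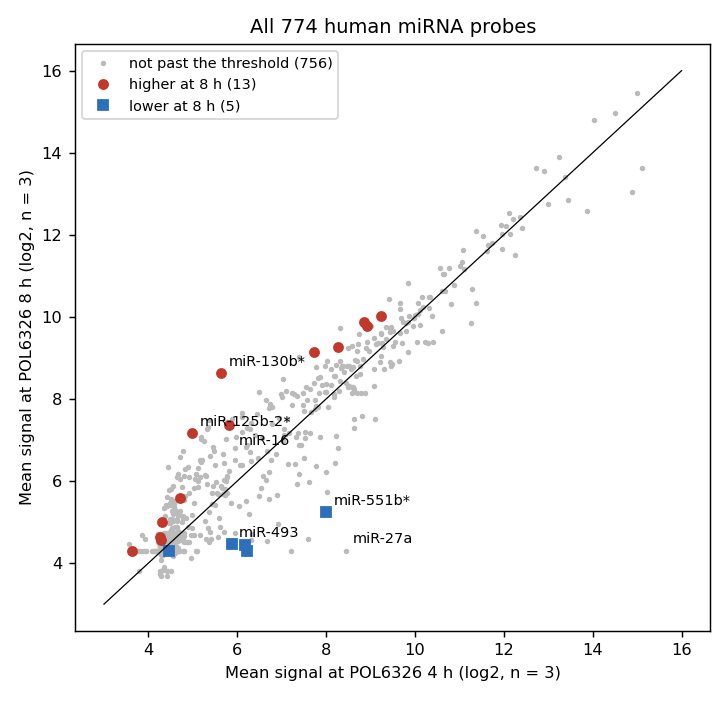
Mean log2 signal of each of 774 probes at POL6326 8 h (vertical axis) against POL6326 4 h (horizontal axis), n = 3 each, with the line of equality. The 13 probes past the threshold and higher at 8 h lie above the line, and the 5 lower lie below it at a 4 h mean under 9.

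The plainest return was miR-125b-2*, the other strand of the MIR125B2 hairpin, from a family known in blood stem cells and myeloid leukaemia. It had 7.01, 7.21 and 7.27 at 8 h and 4.76, 5.06 and 5.15 at 4 h, with no overlap. The difference was 2.17 (SE 0.28), 4.51-fold, with an adjusted p of 0.000155 in limma. The control arrays gave 4.64, 4.35 and 4.36, of which 1 was above the floor, the 1 h arrays 7.99, 7.91 and 7.93, and the 2 h arrays 7.69, 7.71 and 7.54. The signal was there at 1 h, largely gone at 4 h and back at 8 h. The 4 h against 2 h difference was -2.66 (adjusted p = 1.1e-05 in limma) and the 8 h against 2 h difference -0.48 (adjusted p = 0.486). These comparisons, in which 88 probes (11.4%) and 33 probes (4.26%) were called, share arrays with the main one and are given side by side only. Against control, a comparison that called 24 probes (3.1%), 2 of the 3 control arrays were at the floor. With these at their detection limits, miR-125b-2* was at least 2.86-fold higher at 8 h, and the fitted p, which takes the floor as the level, is not given. The partner strand miR-125b was at the floor on every 8 h array and above it on 1 of 3 at 4 h, with a difference of -0.02 (adjusted p = 0.989).

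miR-130b*, the other strand of the hairpin that gives miR-130b, had 8.84, 8.84 and 8.22 at 8 h and 4.61, 7.58 and 4.74 at 4 h. All 8 h arrays were higher, but 1 of the 4 h arrays stood close to them. The difference was 2.99 (SE 0.69, adjusted p = 0.0338 in limma). At 2 h it had 7.21, 8.54 and 7.79, so that the 4 h against 2 h difference was -2.20 (adjusted p = 0.0434) and that of 8 h against 2 h 0.79 (adjusted p = 0.546). miR-130b itself had a difference of -0.07 (adjusted p = 0.983).

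miR-16, which represses cyclins and the survival factor BCL2 and is lost in many chronic lymphocytic leukaemias, had 7.47, 7.68 and 6.92 at 8 h and 5.31, 6.06 and 6.09 at 4 h. The groups did not overlap, and the difference was 1.53 (SE 0.39, adjusted p = 0.0434 in limma), 2.89-fold. This call, like several others, is fragile: it was kept under 6 of 12 alternatives and in 0 of 6 fits with 1 array left out, with adjusted p values up to 0.271. With each array's count above the floor as a covariate, the difference was 0.88. Before that, the control arrays gave 7.89, 8.78 and 8.70, the 1 h arrays 8.55, 8.00 and 8.12, and the 2 h arrays 7.92, 7.80 and 8.10. The 4 h against 2 h difference was -2.11 (adjusted p = 0.00288), and at 8 h miR-16 was 1.10 below control without passing the threshold (adjusted p = 0.157).

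The seed of miR-16 is shared by miR-15a, miR-15b, miR-195, miR-424 and miR-497, and miRNAs with the same seed can pair with many of the same messages. The 2 with the widest difference, 1 of each sign, can be set beside miR-16.
miR-15b: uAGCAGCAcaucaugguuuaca
miR-424: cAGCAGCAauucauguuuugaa
Of these 5, none passed the threshold. miR-424 had 5.41, 6.30 and 7.14 at 8 h and 4.53, 4.91 and 5.06 at 4 h (1.45, adjusted p = 0.218). miR-15a, miR-195 and miR-497 differed by 0.10, 0.23 and 0.05. miR-15b went the other way, with 6.65, 6.20 and 5.05 at 8 h and 7.54, 7.35 and 7.94 at 4 h, a difference of -1.64 (adjusted p = 0.169). Its gene MIR15B lies close to MIR16-2 on chromosome 3, at chr3:160404607-160404628 on the plus strand.

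miR-663, a primate miRNA, had 9.85, 9.75 and 10.04 at 8 h and 8.34, 9.09 and 9.10 at 4 h. The difference was 1.04 (SE 0.27, adjusted p = 0.0434 in limma), against -0.87 for 4 h over 2 h (adjusted p = 0.0375). Its precursor probe differed by 0.55 (adjusted p = 0.346). The mir-560 precursor averaged 9.15 ± 0.13 at 8 h and 7.74 ± 0.66 at 4 h (SD, n = 3), with no overlap (1.41, SE 0.28, adjusted p = 0.0141 in limma). The mature miR-560 probe differed by 1.65 without passing the threshold (adjusted p = 0.0549). miR-181c*, the other strand of a family member prominent in lymphoid and myeloid development, averaged 9.27 ± 0.18 at 8 h and 8.28 ± 0.36 at 4 h (SD, n = 3), a difference of 0.99 (adjusted p = 0.0338). For both, the 4 h against 2 h difference did not pass the threshold, at -0.80 (adjusted p = 0.0721) for the precursor and -0.51 (adjusted p = 0.106) for miR-181c*. The partner strand miR-181c had 8.80, 7.49 and 7.09 at 8 h and 5.57, 6.47 and 8.29 at 4 h. Its groups overlapped, and its difference of 1.02, close to that of miR-181c*, did not pass the threshold (adjusted p = 0.613 in limma).

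**Figure D3:**
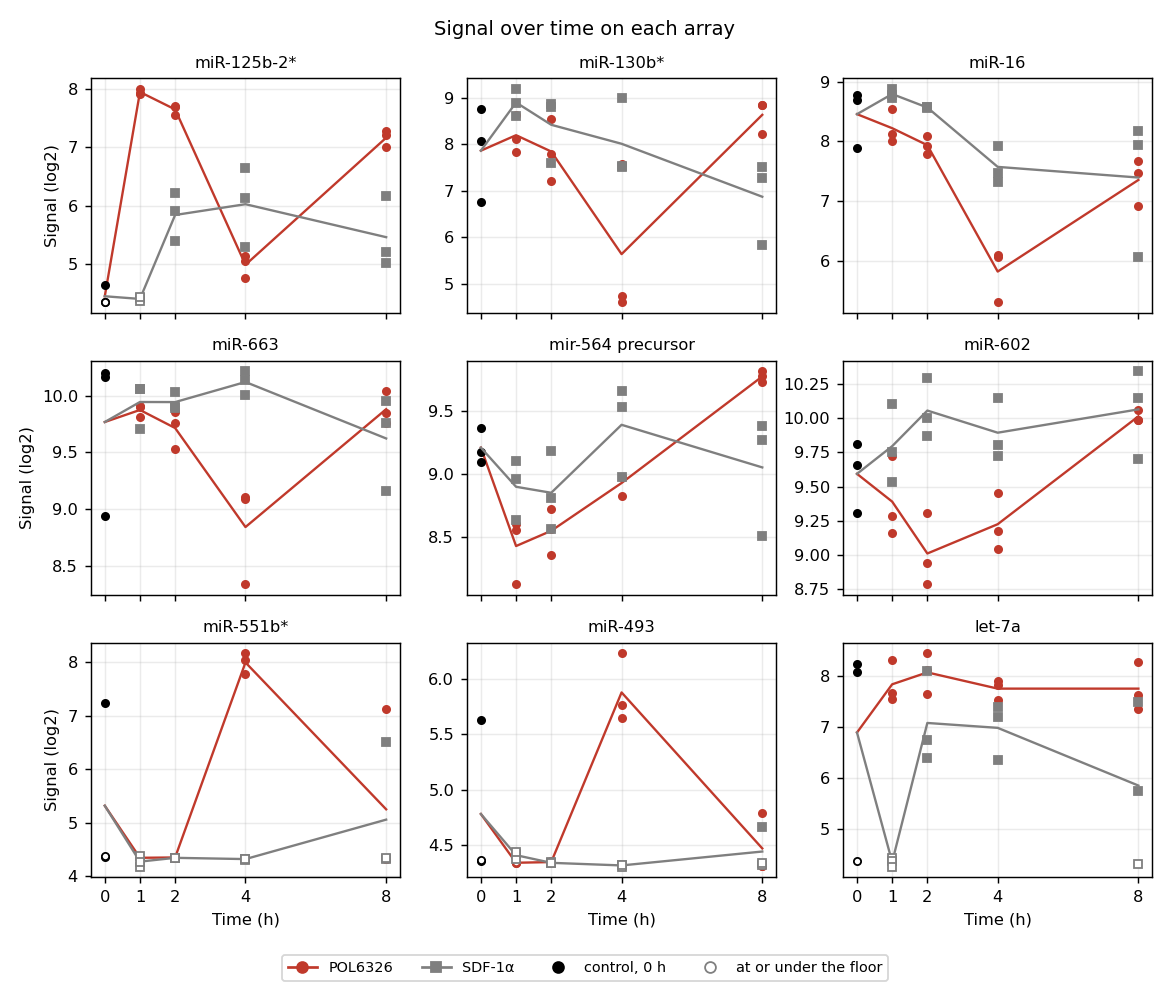
Log2 signal on each array against hours (0, 1, 2, 4 and 8) for 9 probes, with lines through the mean of 3 arrays for POL6326 and SDF-1α and the 0 h control as black points. miR-125b-2*, miR-130b* and miR-16 dip at 4 h of POL6326, miR-551b* and miR-493 peak there, and let-7a does neither.

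For the mir-564 precursor and miR-602 the 8 h level was above that of 2 h as well. The mir-564 precursor had 9.78, 9.81 and 9.72 at 8 h and 8.82, 8.98 and 8.98 at 4 h (0.84, SE 0.21, adjusted p = 0.0434 in limma), and was 1.22 above 2 h (adjusted p = 0.00169). The 8 h against 4 h call was lost in all 6 fits with 1 array left out, at adjusted p values up to 0.149. The mature miR-564 probe had the other sign, at -1.63 (adjusted p = 0.169). miR-602 had 9.99, 9.99 and 10.06 at 8 h and 9.45, 9.04 and 9.18 at 4 h (0.79, adjusted p = 0.0434), and was 1.00 above 2 h (adjusted p = 0.0049). Its 8 h against 4 h call was also lost in all 6 such fits (up to 0.136). The mir-602 precursor differed by 0.21.

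miR-200a*, from a family that keeps epithelial cells epithelial, had 6.16, 5.67 and 4.91 at 8 h and 4.62, 4.86 and 4.66 at 4 h, just apart. The difference was 0.87 (SE 0.19, adjusted p = 0.0312 in limma). At 2 h it was at the floor on all 3 arrays, and by the group means it was at least 1.18-fold higher at 8 h. The third 8 h array lay under the 2 h limits, so a rise over 2 h was not seen on every array. The fitted p, which takes the floor as the level, is not given. miR-19a*, of the MYC-driven miR-17 cluster, had 4.93, 4.95 and 5.15 at 8 h and 4.36, 4.27 and 4.27 at 4 h. Only 1 of the 4 h arrays was above the floor, and the difference was 0.71 (SE 0.09, adjusted p = 0.000155). The signals are faint, and at a common limit the difference was 0.28 (adjusted p = 0.212). At 2 h miR-19a* was at the floor on all 3 arrays, with limits of 5.21 to 5.46 that lie above the 8 h values, so 8 h cannot be set against 2 h. miR-19a itself differed by -0.24 and miR-200a by -0.02.

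The 5 probes lower at 8 h had a median signal of 6.18 at 4 h, 4.44 at 8 h, 4.34 at 2 h and 4.78 in the controls. Of them, miR-134 was faint at 4 h too. miR-551b* had 7.12, 4.31 and 4.31 at 8 h and 8.04, 8.17 and 7.79 at 4 h. A single array of 8 h was above the floor, and the difference was -2.75 (SE 0.70, adjusted p = 0.0434 in limma). At 2 h it was at the floor on all 3 arrays, so 4 h exceeded 2 h at least 6.33-fold. Its partner miR-551b had 8.77, 8.28 and 6.39 at 8 h and 7.88, 8.42 and 7.84 at 4 h, a difference of -0.23 (adjusted p = 0.983).

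miR-493, of the imprinted DLK1-DIO3 cluster on chromosome 14, had 4.79, 4.31 and 4.31 at 8 h and 5.76, 6.23 and 5.64 at 4 h, with no overlap. Again 1 array of 8 h was above the floor. The difference was -1.41 (SE 0.23, adjusted p = 0.00189 in limma), and the 4 h level was at least 1.45-fold above the 2 h limit. For that bound no p is given, since the fit takes the floor as the level. The partner strand miR-493* was at the floor on all 8 h arrays and differed by 0.03.

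miR-452 had 4.70, 4.31 and 4.31 at 8 h and 6.20, 4.91 and 7.43 at 4 h, apart but with a wide 4 h spread (-1.74, SE 0.44, adjusted p = 0.0434 in limma). miR-491-5p was at the floor on all 3 arrays of 8 h and had 7.26, 7.12 and 4.27 at 4 h. The third 4 h array was at the floor as well, so the groups overlapped and no fold is given. The fitted difference, with the floor taken as the level, was -1.91 (adjusted p = 0.0354).

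Calls at the floor make up the rest. For miR-184, all 8 h arrays were at the floor and the 4 h arrays gave 4.28, 3.51 and 3.13, with 2 of them under their floors. With values under the floor raised to it, the fit left a difference of 0.03 (adjusted p = 0.513). The mir-623 precursor had 4.73, 4.31 and 4.88 at 8 h, the second of them at the floor, and was at the floor on all 4 h arrays. Its fitted difference was 0.37 (adjusted p = 0.0338), and no fold is given. miR-708*, which lies outside the naming rule and was chosen after its values were seen, differed by 0.28 (adjusted p = 0.0354). miR-134 of the DLK1-DIO3 cluster was at the floor on all 8 h arrays and had 4.35, 4.56 and 4.48 at 4 h, below the 8 h limit, so no fold is given.

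**Figure D4:**
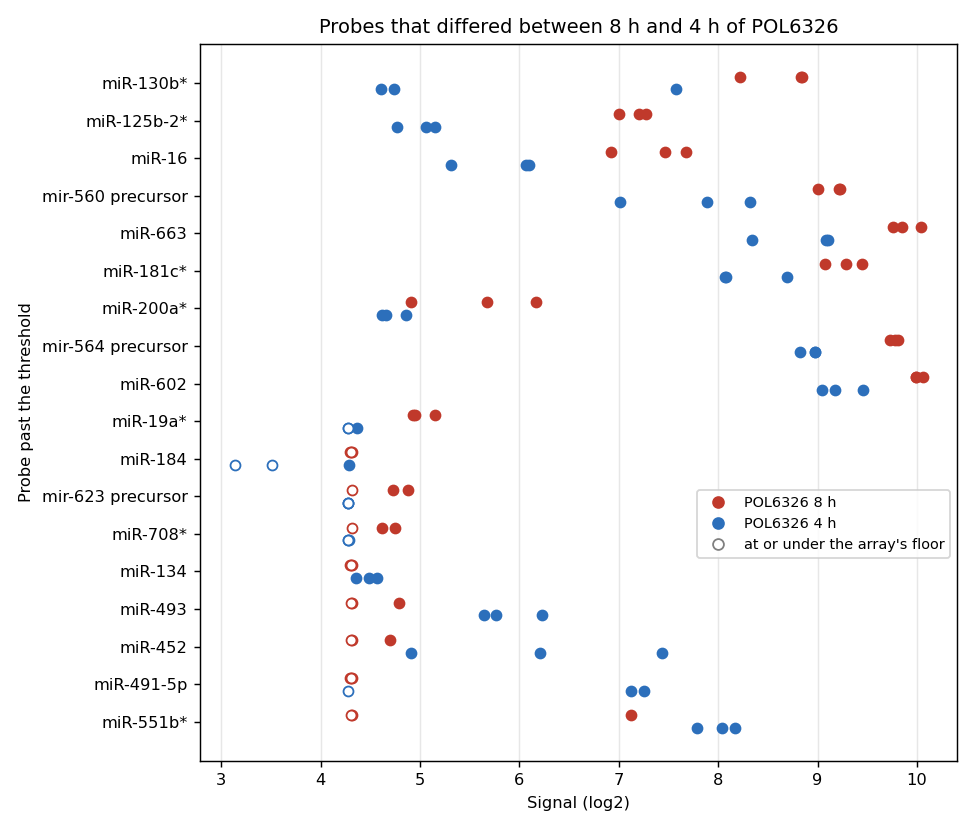
Log2 signal on each of 3 arrays at POL6326 8 h (red) and 4 h (blue) for the 18 probes past the threshold, ordered by difference, with open points at or under the array's floor. The upper 9 probes have 6 filled points each; lower down, open points mark the arrays at the floor.

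Among the 13 higher probes, 6 were asterisk strands (46.2%) and 3 precursors (23.1%), against 139 asterisk strands among all 774 and a share of 17.7% for precursors. With so few calls these shares are descriptions.

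The calls lean on single arrays. Without the first 4 h array, 7 probes passed the threshold. miR-125b-2* (2.06, adjusted p = 0.000869 in limma), miR-19a* (0.74, adjusted p = 0.000462) and miR-493 (-1.47, adjusted p = 0.0036) were among them, and so were miR-184 and miR-134 at the floor. miR-130b* stood at 2.47 (adjusted p = 0.13), miR-16 at 1.28 (adjusted p = 0.212), miR-663 at 0.79 (adjusted p = 0.234) and the mir-560 precursor at 1.05 (adjusted p = 0.0644). miR-181c* (0.89), miR-200a* (0.83), the mir-564 precursor (0.79), miR-602 (0.90), miR-551b* (-2.73), miR-452 (-1.73) and miR-491-5p (-1.39) kept their sign and also missed the threshold, at adjusted p values of 0.0644 to 0.157. Leaving out any other of the 6 arrays left 7 to 17 calls. Over the 6 fits with 1 array left out, miR-130b*, miR-663, miR-551b*, miR-452 and miR-491-5p were each kept in 1. miR-181c* was kept in 2, miR-200a* in 3 and the mir-560 precursor in 5.

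Some wide differences missed the threshold. miR-27a, of the miR-23, miR-24 and miR-27 clusters, was at the floor on all 8 h arrays and had 8.50, 8.67 and 8.15 at 4 h, at least 13.5-fold lower at 8 h (adjusted p = 0.0699 in limma). At 2 h it had 4.34, 4.35 and 7.96, and in the controls 8.33, 4.35 and 4.36, so single arrays of other groups also gave a high value. miR-223 differed by 0.78 (adjusted p = 0.0591), after a 4 h level 1.21 below that of 2 h (adjusted p = 0.00175). miR-203 of skin and other epithelia differed by 1.90 (adjusted p = 0.0624), and neural miR-137 by 1.96 (adjusted p = 0.0649).

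let-7a, named in the title of the study and known to repress RAS and MYC, did not move detectably. It had 7.64, 7.35 and 8.29 at 8 h and 7.53, 7.84 and 7.92 at 4 h. The groups overlapped, and the 95% interval of the difference, -1.68 to 1.68, still admits changes of about the size seen for miR-16. None of the 17 let-7 family probes passed the threshold. Of 12 measured on all 6 arrays 9 were higher at 8 h, a share close to that over all such probes (228 of 321). let-7d differed by 1.33 (adjusted p = 0.132) and let-7f by 1.89 (adjusted p = 0.169).

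The probes were also read by 22 lists of miRNA families, clusters and tissue markers, with 304 probes in any list and 23 in more than 1. Over all 774 probes, 1.68% were called higher and 0.646% lower. Of the 25 probes of the miR-17 clusters and paralogues 1 was called higher (miR-19a*), of the 13 of the miR-15, miR-16, miR-195, miR-424, miR-497 and miR-503 group 1 (miR-16), and of the 22 myeloid and haematopoietic probes 1 (miR-181c*). miR-125b-2* was the only call among 11 NF-kB-linked and 18 stem-cell and leukaemia-linked probes, and miR-200a* among 11 epithelial ones. Of 79 DLK1-DIO3 probes 2 were called lower, miR-493 and miR-134. The other 15 lists held no call.

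The 321 probes measured on all 6 arrays had a median of 0.31, with 228 higher at 8 h. Beside these, the 16 such myeloid and haematopoietic probes had a median difference of 0.73, with 12 higher at 8 h, a similar share. The 8 p53-linked ones had a median of 1.04 and the 6 epithelial ones 1.07. The summed signal of all 22 myeloid and haematopoietic probes (log2 of the sum) was 15.47 to 15.80 at 8 h and 14.67 to 15.18 at 4 h. A large part of it was the brightest probe, miR-223, with means of 14.80 at 8 h and 14.03 at 4 h. The summed signal of the 11 epithelial probes was 9.84 to 10.37 at 8 h and 9.52 to 9.58 at 4 h. Among them miR-200c, a defining member, was at the floor on all 8 h arrays and above it on 1 at 4 h. The 14 stromal and endothelial probes had 10.29 to 10.39 at 8 h and 10.54 to 10.76 at 4 h, and the 16 pluripotent ones 12.32 to 12.75 at 8 h and 12.80 to 13.00 at 4 h. The part of these tissue markers in the results was not tested. miR-34b, a p53 target, had 7.62, 8.00 and 7.73 at 8 h and 6.29, 6.41 and 7.47 at 4 h (adjusted p = 0.13 in limma). The 5 CREB-linked probes had a median of -0.10, and 4 were lower at 8 h, among them miR-132 Plus/Minus at -1.01 (adjusted p = 0.326). The 2 erythroid ones had a median of -0.18. The miR-16 group, with 7 such probes, had a median of 0.10, which turned to -0.04 after median centring and -0.03 after quantile normalization.

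The highest median, 1.11, was that of the 3 NF-kB-linked probes measured on all 6 arrays, miR-125b-2* among them, and the other lists lay between these. Over all 11 NF-kB-linked probes the median was 0.03. Outside the 3, miR-146a, at the floor on some 8 h arrays, differed by -1.43 (adjusted p = 0.225 in limma). For the 5 probes of the miR-29 family the median was 0.52, and miR-29c* differed by 1.96 (adjusted p = 0.25). For the miR-30 family it was -0.01 over 5. The 6 HOX-embedded probes had a median of 0.45, with miR-10b at 0.75 (adjusted p = 0.22) and miR-615-3p at 0.43 (adjusted p = 0.225). miR-222 differed by 0.44 and miR-221 by -0.63, each with an adjusted p of 0.583. miR-210, which is induced by hypoxia, had 9.16, 8.92 and 8.70 at 8 h and 7.11, 8.86 and 8.06 at 4 h (0.92, adjusted p = 0.583).

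**Figure D5:**
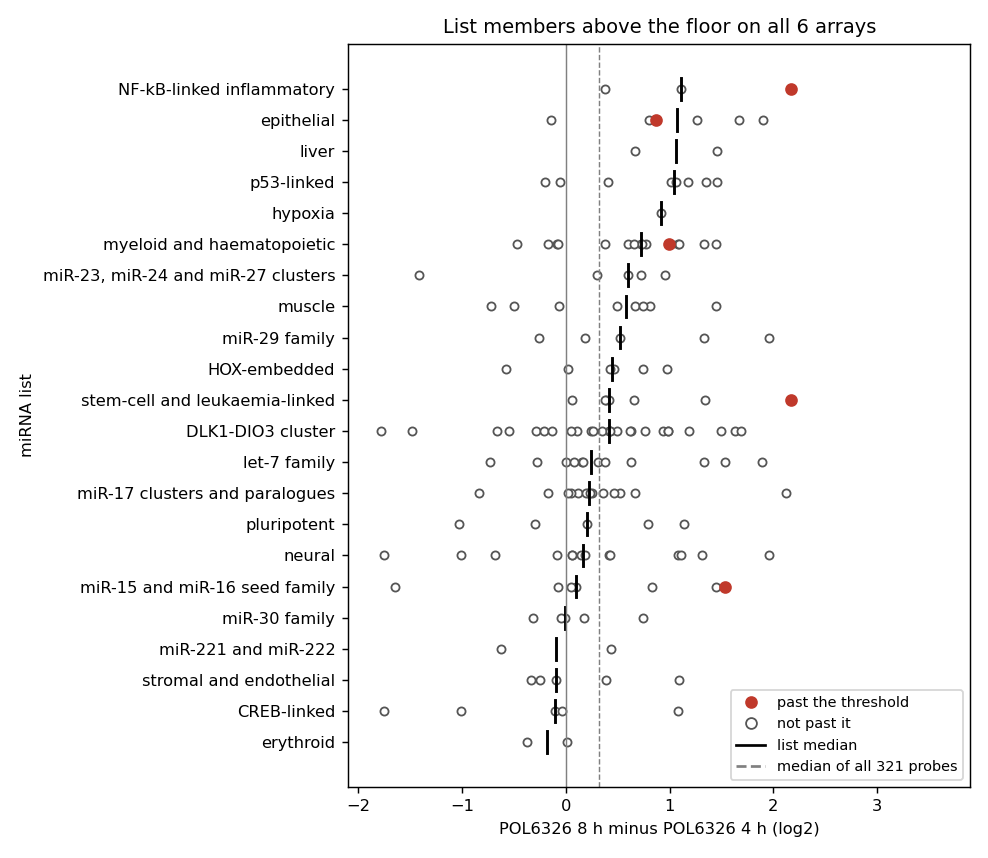
Difference (log2, POL6326 8 h minus 4 h) of each list member above the floor on all 6 arrays, with filled points past the threshold, the list median as a bar and the median of all 321 such probes as a dashed line. The list medians lie between -0.18 and 1.11, and the filled points are miR-125b-2* (in 2 lists), miR-16, miR-181c* and miR-200a*.

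Against 2 h, 33 of 774 probes (4.26%) differed at 8 h, with 22 (2.84%) higher and 11 (1.42%) lower, and 114 at an unadjusted p under 0.05. After median centring there were 19 higher and 280 lower, and the array median was at the floor at 2 h and above it at 8 h. Of the 4 widest rises, 3 were in probes at the floor at 2 h. miR-500* had 8.23, 8.25 and 8.26 at 8 h and was at the floor at 2 h, at least 7.51-fold higher at 8 h (adjusted p = 0.0433 in limma), and had 7.71, 7.99 and 7.20 already at 4 h. miR-551b was at least 5.56-fold higher (adjusted p = 0.0396) and the mir-204 precursor at least 3.19-fold (adjusted p = 0.0323). miR-374b*, measured at both times, had 10.28, 9.26 and 9.60 at 8 h and 6.28, 6.28 and 6.36 at 2 h (3.41, adjusted p = 0.0237).

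miR-146a, which NF-kB induces and which damps Toll-like receptor signalling, had 4.66, 4.31 and 4.31 at 8 h and 7.16, 8.18 and 8.18 at 2 h (-3.41, adjusted p = 0.00142 in limma). Only the first of the 8 h arrays was above the floor. Its 4 h values were 5.61, 6.66 and 5.30. miR-556-5p was at least 5.20-fold lower at 8 h (adjusted p = 0.00091), miR-590-5p differed by -2.67 (adjusted p = 0.00091) and erythroid miR-451 by -2.24 (adjusted p = 0.00365). None of these 4 passed the threshold between 8 h and 4 h, and all had passed between 4 h and 2 h, at -1.98, -2.36, -2.69 and -1.87 in the same order.

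The step between 4 h and 8 h was then set against the same step under SDF-1α. The difference of the steps, POL6326 minus SDF-1α, passed the threshold in 20 of 774 probes (2.58%), with 16 positive (2.07%) and 4 negative (0.517%), and in 16.5% at an unadjusted p under 0.05. These calls rest on the spread taken from all 27 arrays. With only the 4 groups compared, none of the 20 passed, at adjusted p values of 0.0544 to 0.187, and 2 other probes did, miR-133b (-1.79) and miR-548c-3p (-3.60), which lie outside the naming rule and were chosen after their values were seen. After median centring 9 were positive and 4 negative, and after quantile normalization 8 and 7. The median difference of steps was 0.56 among the 321 probes above the floor on all 6 POL6326 arrays. miR-125b-2* had 5.02, 5.21 and 6.16 at 8 h of SDF-1α and 5.29, 6.14 and 6.65 at 4 h, so its step was 2.17 under POL6326 and -0.56 under SDF-1α, a difference of 2.74 (SE 0.40, adjusted p = 0.000596 in limma over 27 arrays, 0.0751 over the 4 groups). miR-493 was above the floor on 1 array at 8 h of SDF-1α and on none at 4 h, so the SDF-1α step is not measured. The fitted steps, with the floor taken as the level, differed by -1.53 (adjusted p = 0.0217).

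The other 3 of the 5 smallest p-values belonged to probes that passed the threshold between 8 h and 4 h of SDF-1α, as 10 probes did (1.29%). miR-652 had 4.87, 5.61 and 5.34 at 8 h of SDF-1α and was at the floor on all arrays at 4 h, so it was at least 1.37-fold higher at 8 h of SDF-1α. At 8 h of POL6326 it was at the floor on all arrays too. The fitted difference of steps of -1.18 (adjusted p = 0.000596) takes these floors as levels, so its size and its p are not those of measured signals. miR-380* had 5.27, 5.34 and 4.34 at 8 h of SDF-1α and 6.97, 6.56 and 6.62 at 4 h, with a difference of steps of 2.40 (adjusted p = 0.00782). miR-328 had 10.33, 10.84 and 10.84 at 8 h of SDF-1α and 10.20, 9.89 and 9.71 at 4 h, with a difference of steps of -1.05 (adjusted p = 0.0208). For these 3, the POL6326 step itself did not pass the threshold.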

How the data were processed

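Total RNA of OCI-AML3 cells was reverse transcribed with a biotin-labelled random-end primer and hybridised to a chip, per the labels' protocols. The authors deposited log2 signals. Not given in the sources used here are the scanner, the background correction and the normalization. The 27 arrays share 1 maximum, as after quantile normalization. Of 774 human probes 637 were mature and the rest precursor, and 38 carried the unexplained mark "Plus/Minus". The 10 control probes stayed out of tests.

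The floor was an array's most frequent value (tolerance 1e-04), and the detection limit the lowest value above it. "At least" folds set the mean of a group measured on all its arrays against the other's limits. An adjusted p printed beside such a fold belongs to the fitted difference, with the floor taken as the level, and does not test the bound. Tied floor values vary little, so SEs and p-values resting on them can be too small. Array number limits the precision.

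One mean per group (9 groups of 3) was fitted with limma 3.58.1 in R 4.3.3 (prior degrees of freedom 0.90). P-values are two-sided, adjusted by Benjamini-Hochberg over 774 probes, with the threshold at 0.05. The fit was tested on simulated data with normal noise and no floor, so that test does not cover calls that rest on tied floor values.

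Named were the 12 largest rises and falls past the threshold, up to 8 each among probes measured on all 6 arrays, 5 with the smallest p against SDF-1α, 4 and 4 against 2 h, let-7a, and 2 members per list (22 lists). Members and lists were chosen with earlier results of these data known. Asterisk names were matched to RefSeq arms by their later names, 23 of 23. Alternatives were scaling, filters, floor handling, probe averaging, moderation, a replicate block, sample subsets, a fold minimum, a covariate and leaving out arrays.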

Additional observations from a re-analysis of the deposited data

Results flagged for a closer look

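The step between 4 h and 8 h differed between POL6326 and SDF-1α, by the test of that difference in the limma fit over 27 arrays, in 20 probes, and each is given as the POL6326 step minus the SDF-1α step (log2). In 4 of the probes higher at 8 h of POL6326 the value was positive beside miR-125b-2* (2.74): miR-130b* (4.13), miR-663 (1.54), the mir-560 precursor (1.64) and the mir-564 precursor (1.18). In these the SDF-1α step was negative but did not pass the threshold.

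Among the 321 probes above the floor on all 6 POL6326 arrays, the median difference of steps was 0.56, and the values are to be read beside it. The SDF-1α 8 h arrays were uneven, with 317 to 489 probes above the floor. A larger set had a negative SDF-1α step and a positive POL6326 step that did not pass the threshold. In it were myeloid miR-223 (1.18), miR-191 (1.31), miR-342-3p (1.45), miR-20a (1.26) of the miR-17 cluster, miR-107 (1.23), miR-26b (1.19), let-7d (2.58), miR-140-3p (2.49), miR-561 (2.62), miR-380* (2.40) and the mir-431 precursor (0.76). miR-342-3p, for example, had 13.76, 13.88 and 14.01 at POL6326 8 h and 12.88, 13.05 and 13.76 at POL6326 4 h, beside 12.81, 13.39 and 13.18 at SDF-1α 8 h and 14.01, 13.88 and 13.88 at SDF-1α 4 h. miR-223 had 15.12 on all 3 arrays of SDF-1α at 4 h.

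None of the 20 passed with only the 4 groups compared. The value was negative for miR-493 (-1.53), miR-652 (-1.18), both with whole groups at the floor, miR-328 (-1.05) and miR-34c-3p (-0.79). miR-34c-3p had 7.96, 8.40 and 8.53 at POL6326 8 h and 8.54, 8.52 and 8.43 at POL6326 4 h, beside 8.95, 8.76 and 8.72 at SDF-1α 8 h and 8.27, 8.23 and 8.16 at SDF-1α 4 h.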

How the results depend on the processing

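Between 8 h and 4 h, the 18 calls became 11 with quantile normalization, 3 in the upper 50% of probes by mean signal, 3 when a probe had to exceed the floor on 50% of arrays, 7 with each array's count above the floor as a covariate, and 6 with only POL6326 and control arrays, an alternative chosen after seeing the data. The other alternatives gave 14 to 18 calls, apart from the replicate block with 28. Fitting only the groups compared gave 16, of which 3 were shared: miR-125b-2*, miR-19a* and the mir-564 precursor. For the block, same-numbered 8 h and 4 h arrays did not deviate together (r = -0.03, -0.03 and -0.02), no array correlated best with its own number, and the samples share only a number. Leaving out 1 array gave 7 to 17 calls, with 7 without 4 h array 1 or 8 h array 3, and 8 without 4 h array 2, 8 h array 1 or 8 h array 2. miR-125b-2* passed under all 12 alternatives and all 6 leave-outs, miR-19a* under 9 of 10 and all 6, and miR-493 under 8 of 10 and all 6. Against 2 h, the share of probes called, 4.26%, became 38.6% with median centring, 38.0% with only the groups compared, and 2.07% to 3.36% without 1 array (2.07% without 8 h array 1, 2.45% and 2.58% without 2 h arrays 3 and 1). For the difference of steps, there were 13 calls with median centring against 20, 11 with the covariate, 2 with only the groups compared, of which 0 were among the 20, and 5 to 30 without 1 array (5 without SDF-1α 4 h array 1 or SDF-1α 8 h array 1, 10 without SDF-1α 4 h array 3, 8 without POL6326 4 h array 1, 13 without POL6326 4 h array 2 or POL6326 8 h array 1). The difference in probes above the floor, -122 (-143 to -87.5 without 1 array), turned to 36 at 1 common limit and to 33.3 at 0.5 over the floor. Signs turned, in probes not called between 8 h and 4 h, for miR-590-5p (-0.11 centred, -0.035 quantile, -0.13 to 0.22 without 1 array), miR-30d* and miR-144* (-0.10 centred, miR-144* -0.0039 with the covariate), miR-551b (0.34 with the covariate, -0.71 to 0.48 without 1 array), miR-210 (-0.35) and let-7a (0.98 with the covariate, -0.27 to 0.20 without 1 array). The causes were not tested. In 9 of the 18 calls at least 1 array was at or under its floor. Others also held values close to it, such as miR-130b* and miR-200a* at 4 h.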

Other observations

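The 10 control probes were left out of the tests, and several were lower on 8 h arrays 2 and 3. HSHELA01 had 12.70, 10.21 and 10.72 at 8 h and 12.27, 12.70 and 12.88 at 4 h. HSTRNL had 11.33, 9.87 and 9.39 at 8 h, against 11.11, 11.50 and 11.62 at 4 h, and HUMTRAB had 8.72, 7.38 and 4.31 at 8 h and 8.90, 9.18 and 9.62 at 4 h. The GAPDH probe had 9.54, 9.34 and 9.16 at 8 h, against 9.26, 9.72 and 9.84 at 4 h, and the HUMTRV1A probe averaged 10.66 ± 0.43 at 8 h and 10.65 ± 0.50 at 4 h (SD, n = 3).

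miR-494 of the DLK1-DIO3 cluster, chosen after its values were seen, had 14.19, 13.29 and 13.39 at 8 h and 15.46, 14.39 and 15.46 at 4 h. The groups did not overlap, and the difference of -1.48 did not pass the threshold (adjusted p = 0.169 in limma). Of the 26 probes of that cluster measured on all 6 arrays, 19 were higher at 8 h and 7 lower, beside 228 higher of all 321 such probes.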
